A study of Homo sapiens with 6 samples.

Results

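The genes described here are 7 genes picked from the deposited counts because fewer reads fell on them after 24 h of MPP+ than after 0.5 h. They are CENPV, ATXN7L2, MEX3A, EIF4B, KDM1A, SATB1 and the long noncoding RNA gene LINC01607, out of 67051 gene identifiers in the tables. All 7 passed the filter on low counts, which kept 23133 genes. The difference between 24 h and 0.5 h chose them, so it is described below with no test.

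The measurement was PRO-seq, in which polymerases engaged on DNA in isolated nuclei extend their transcripts with biotin-labelled nucleotides and the labelled nascent RNA is sequenced. The cells were SH-SY5Y, an established human neuroblastoma line with adrenergic features. The 3 groups of 2 libraries each were untreated cells, cells given 0.1 mM MPP+ over 0.5 h, and cells given 0.1 mM MPP+ over 24 h. MPP+ (1-methyl-4-phenylpyridinium) enters neurons by monoamine uptake and blocks complex I, the NADH dehydrogenase of mitochondria. The labels name no allele or other agent. Whether the libraries of a group are separate cultures is not said either, and each p-value therefore reflects the spread among the libraries at hand, possibly a technical one.

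A PRO-seq count follows the density of engaged polymerase, not the amount of stable RNA, and polymerase often pauses shortly downstream of a start site before it moves into the gene. The 6 protein-coding genes act on chromosomes, chromatin and mRNA. CENPV (centromere protein V) is needed to place the chromosomal passenger complex, which corrects chromosome attachment in mitosis. ATXN7L2 is a paralogue of ATXN7, a subunit of the histone deubiquitinase module of the SAGA coactivator complex. KDM1A (LSD1) is the flavin-dependent histone H3 lysine demethylase of the CoREST complex, and SATB1 binds matrix attachment regions and organises chromatin loops. MEX3A is an RNA-binding protein with KH domains and a RING domain, and EIF4B stimulates the RNA helicase eIF4A when ribosomes are recruited to capped mRNA.

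Assigned counts per library were 7044839 and 8381006 in untreated cells, 11707612 and 8714604 at 0.5 h, and 8573601 and 5983066 at 24 h. Levels are given as CPM, counts scaled to a common library size by TMM (trimmed mean of M-values), and are compared only between libraries, not between genes. Of 11 markers of adrenergic neuroblastoma, 10 were tested and 0 were at 0 in all libraries. The 11 summed to 3259 and 3677 CPM of unscaled assigned counts in untreated cells, to 3203 and 3521 at 0.5 h and to 2927 and 3440 at 24 h. Tyrosine hydroxylase (TH), a defining enzyme of catecholamine neurons, had only 2 to 10 counts per library. The 7 mesenchymal-state markers summed to between 1240 and 1787 and the 5 markers of other cell types to between 144 and 182 over the 6 libraries. TWIST1 made up most of the former (1150 to 1759 CPM) and EPCAM of the latter (126 to 175 CPM). These 2 ranges are TMM-scaled, whereas the sums are of unscaled counts. Fewer cells of a type and less nascent RNA per cell cannot be told apart in such bulk libraries.

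How much of each gene was counted bears on all values below. In these tables, 862 of 867 protein-coding genes that lie wholly inside genes of the opposite strand only, by GENCODE 29, were listed at 0 in all 6 libraries (99.4%). The same held for 342 of 350 that lie wholly inside genes of the same strand only (97.7%), against 504 of 7187 that are clear of every other gene (7.01%). Reads over bases that belong to another gene on either strand were thus largely missing from the tables, and reads of both strands cannot be told apart in what was counted. The release of the annotation that the authors used is not given in the sources used here, so the spans below may differ from those counted.

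Of the 7 genes, 5 have at least 80% of their span inside other genes, a share that 4.31% of 22341 tested genes with a position reach. KDM1A has 704 bases of its 64247 in no other gene, and they are its first 704. LINC01607 has 1230 of 34701, CENPV 1859 of 11123, and for both these are again the first bases of the gene. EIF4B has 6620 of 36052, of which 5946 start at its first base. SATB1, nested in TBC1D5, has 206 of 100202, and they lie between 0.564% and 0.769% of its span from the start. ATXN7L2 and MEX3A overlap no other gene and can be counted from end to end. For the other 5, the values below therefore bear on a small part of the gene near its start, and how much polymerase lay over the rest of these genes was not measured.

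**Figure D1:**
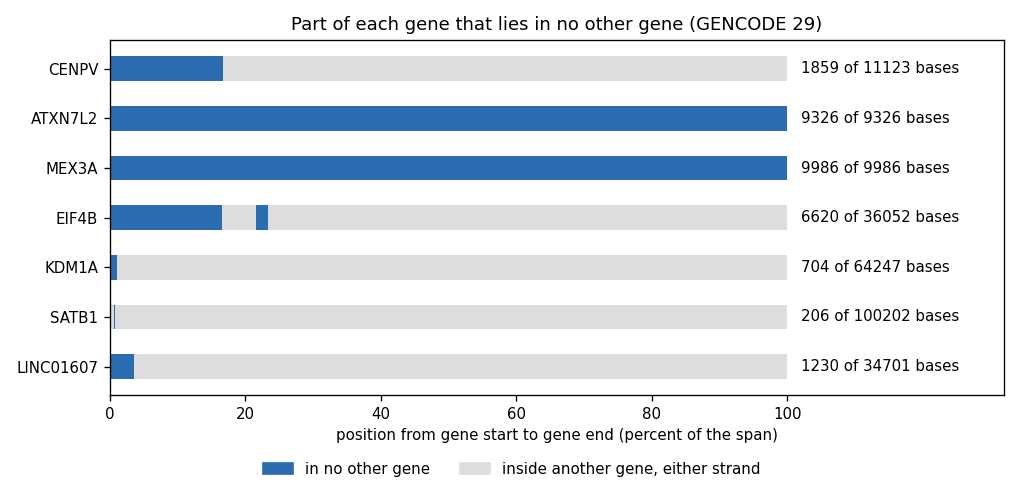
Position along each of the 7 genes from start to end, as percent of the span, with stretches in no other gene in blue and stretches inside another gene on either strand in grey. ATXN7L2 and MEX3A are free over the whole span, whereas 704 bases of KDM1A and 206 bases of SATB1 are free, near the gene start.

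The sequence around the start is shown for 6 of the genes to mark the GC box. This element is bound by SP and KLF factors, and many promoters without a TATA box carry it. All are from RefSeq (GRCh38.p14), 5′ to 3′ on the gene's strand, numbered so that -1 is the base before the RefSeq start. The CENPV stretch covers -52 to -23 (chr17:16353492-16353521, minus strand), that of ATXN7L2 covers 13 to 42 (chr1:109483917-109483946, plus strand), and that of MEX3A covers -100 to -1 (chr1:156082466-156082565, minus strand). The EIF4B stretch covers -83 to -54 (chr12:53006373-53006402, plus strand), that of KDM1A covers -125 to -26 (chr1:23019343-23019442, plus strand), and that of SATB1 covers -100 to -1 (chr3:18445593-18445692, minus strand). Capitals mark a GC box, GGGCGG or its reverse complement CCGCCC, and SATB1 has none at the start used. RefSeq lists 4 starts for SATB1 and 2 for ATXN7L2, of which only the first listed was used.
CENPV: ctgaagactggcGGGCGGcgggggcgcgcg
ATXN7L2: gcggcggcgccaGGGCGGgcgcgcgtccgc
MEX3A: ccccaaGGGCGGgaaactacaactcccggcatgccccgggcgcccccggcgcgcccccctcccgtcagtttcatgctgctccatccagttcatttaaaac
EIF4B: gtcctcacctccCCGCCCcctcccagcttc
KDM1A: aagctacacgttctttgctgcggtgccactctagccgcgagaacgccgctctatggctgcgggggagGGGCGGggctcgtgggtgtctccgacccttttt
SATB1: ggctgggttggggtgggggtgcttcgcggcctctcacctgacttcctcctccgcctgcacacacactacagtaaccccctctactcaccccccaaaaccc

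Over the full windows of 250 bases before to 50 bases after the start, 5 of the 6 promoters held GGGCGG on either strand, as did 44.6% of 27305 promoters. The GC content was 80% in CENPV, 67.3% in ATXN7L2, 66.7% in KDM1A, 66% in EIF4B, 60.3% in MEX3A and 56.7% in SATB1, against a median of 58.3%. CpG dinucleotides numbered 44 in CENPV, 36 in KDM1A, 35 in EIF4B, 26 in ATXN7L2, 18 in MEX3A and 12 in SATB1, against a median of 14. The other searches, on both strands as well, gave few matches. The E-box CACGTG was found in EIF4B alone (7.43% of all promoters) and CCAAT in MEX3A alone (35.7%). TATAAA (12.0% of all), the CRE TGACGTCA (1.98%) and the ETS motif CCGGAAG (10.7%) were in 0 of the 6.

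CENPV (ENSG00000166582.10, hg38 chr17:16342534-16353656, minus strand) had 76.2 and 82.9 CPM in untreated cells, 90.2 and 90.6 at 0.5 h, and 57.3 and 54.1 at 24 h. Both 24 h libraries were below all the others, and both 0.5 h libraries were above the untreated ones. The means were 79.6 ± 4.73, 90.4 ± 0.292 and 55.7 ± 2.31 CPM (SD, n = 2), so the level at 24 h was 1.62-fold below that at 0.5 h, a log2 difference of -0.70 ± 0.099 (SE, edgeR).

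ATXN7L2 (ENSG00000162650.16, hg38 chr1:109483479-109492804, plus strand) had 65.8 and 60.4 CPM untreated, 62.5 and 70.1 at 0.5 h, and 42.3 and 36.7 at 24 h. The 0.5 h libraries overlapped the untreated ones and the 24 h libraries lay below both groups. With means of 63.1 ± 3.84, 66.3 ± 5.38 and 39.5 ± 3.96 CPM, the level at 24 h was 1.67-fold below that at 0.5 h (log2 difference -0.74 ± 0.12).

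KDM1A (ENSG00000004487.17, hg38 chr1:23019443-23083689, plus strand) had 26.8 and 19.2 CPM untreated, 29.9 and 23.0 at 0.5 h, and 13.6 and 12.0 at 24 h. Replicate 1 was above replicate 2 in each group, the untreated and 0.5 h libraries overlapped, and the 24 h libraries were the lowest. The means were 23.0 ± 5.39, 26.5 ± 4.91 and 12.8 ± 1.14 CPM, a 2.06-fold lower level at 24 h than at 0.5 h (log2 difference -1.04 ± 0.21). Leaving out 1 library at a time moved this difference between -1.22 and -0.84.

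SATB1 (ENSG00000182568.17, hg38 chr3:18345387-18445588, minus strand) had the fewest counts, 25 and 31 untreated, 60 and 54 at 0.5 h, and 17 and 14 at 24 h. Counting error alone was 12.9% to 26.7% of the value per library. In CPM these were 3.61 and 3.64, then 5.28 and 6.21, then 2.01 and 2.27, and the 3 groups did not overlap. The means were 3.62 ± 0.0189, 5.75 ± 0.653 and 2.14 ± 0.183 CPM, and the level at 24 h was 2.68-fold below that at 0.5 h (log2 difference -1.42 ± 0.27).

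MEX3A (ENSG00000254726.3, hg38 chr1:156072013-156081998, minus strand) had 115 and 103 CPM untreated, 99.2 and 101 at 0.5 h, and 67.6 and 73.1 at 24 h. It was the 1 gene of the 7 whose 0.5 h libraries were both below the untreated ones, and the 24 h libraries were lower still. Means were 109 ± 8.34, 99.995 ± 1.18 and 70.3 ± 3.83 CPM, a 1.42-fold lower level at 24 h than at 0.5 h (log2 difference -0.51 ± 0.10).

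EIF4B (ENSG00000063046.18, hg38 chr12:53006158-53042209, plus strand) had 43.6 and 38.7 CPM untreated, 46.9 and 43.3 at 0.5 h, and 29.9 and 29.4 at 24 h. The 24 h libraries lay below the others, and the 0.5 h libraries overlapped the untreated ones. Its means were 41.1 ± 3.46, 45.1 ± 2.48 and 29.6 ± 0.330 CPM, with the 24 h level 1.52-fold below that at 0.5 h (log2 difference -0.61 ± 0.12).

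LINC01607 (ENSG00000272138.2, hg38 chr8:79768142-79802842, plus strand) had 58.9 and 52.2 CPM untreated, 66.1 and 67.3 at 0.5 h, and 41.7 and 44.6 at 24 h. Both 0.5 h libraries were above the untreated ones and both 24 h libraries below them. Means of 55.5 ± 4.74, 66.7 ± 0.852 and 43.2 ± 2.09 CPM put the 24 h level 1.55-fold below that at 0.5 h (log2 difference -0.63 ± 0.11).

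**Figure D2:**
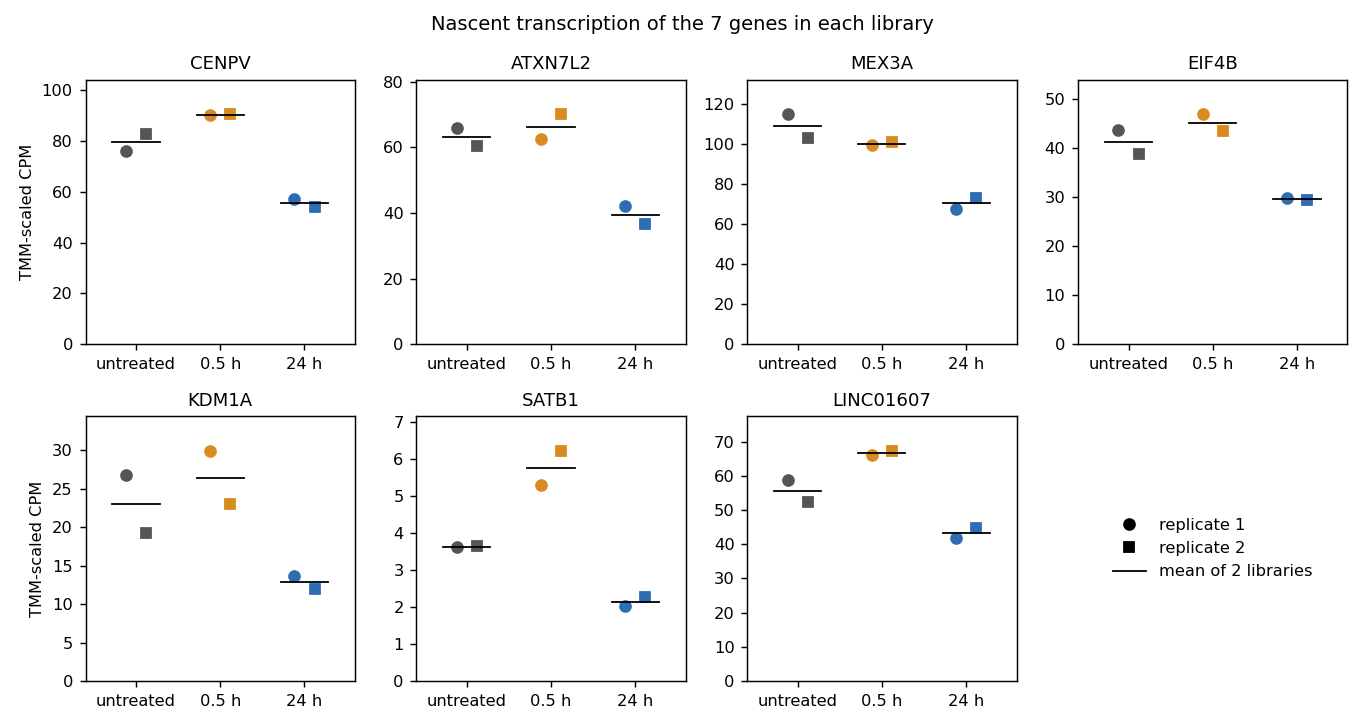
TMM-scaled CPM of each of the 7 genes in each library (circles for replicate 1, squares for replicate 2) with the mean of the 2 libraries as a line, each axis starting at 0. In every panel both 24 h libraries lie below the other 4, and SATB1 has the lowest values, 2.01 to 6.21 CPM.

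The log2 differences between 24 h and 0.5 h ran from -1.42 for SATB1 to -0.51 for MEX3A with a median of -0.70, where the median of all genes was 0.0029. Both 24 h libraries were below both 0.5 h libraries in 7 of 7, as in 19% of all tested genes, and below all 4 other libraries in 7 of 7, as in 10.4% of all. Since the contrast chose the genes, nothing is read from these counts. In the whole table edgeR called 0 genes higher and 0 lower at 24 h than at 0.5 h (percent called 0), with a smallest adjusted p of 0.754. The number of genes whose unadjusted p was below 0.05 was 648 for higher and 838 for lower. Without the filter on low counts edgeR called 29 higher and 44 lower. With replicate number as a block in the fit, it called 116 higher and 296 lower, so the count of 0 depends on leaving that block out.

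The 7 were among the 10 lower genes with the smallest p in that contrast. The other 3 of these 10 were ZKSCAN2, ZKSCAN7 and ENSG00000214559. By p among the lower genes, KDM1A stood in place 10 and SEPHS2, in place 11, had -0.50 ± 0.11. Ranked by the size of the fall, SATB1 stood in place 17, KDM1A in 61 and MEX3A in 663. The 7 thus stood nearer the top by p than by size, but how they were ranked when picked is not stated.

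Against untreated cells, which each MPP+ group shares as its control, the 0.5 h and 24 h values differed in sign for 6 of the 7 genes. These differences use libraries that the choice also used, and they are given with no test. Picking genes lower at 24 h than at 0.5 h by itself favours opposite signs against a shared control. The share of all genes with opposite signs was not counted, so nothing is read from the 6 of 7. In the whole table edgeR called 0.0735% of tested genes lower at 0.5 h and 0.0692% lower at 24 h, and no call of the 7 genes is read from these contrasts. At 24 h the log2 difference from untreated was -0.83 ± 0.22 for KDM1A, -0.76 ± 0.30 for SATB1, -0.67 ± 0.12 for ATXN7L2, -0.63 ± 0.10 for MEX3A, -0.51 ± 0.10 for CENPV, -0.47 ± 0.13 for EIF4B and -0.36 ± 0.11 for LINC01607. Both 24 h libraries were below both untreated libraries in 7 of 7, against 18.5% of all tested genes, while 18.8% of all genes had both above. At 0.5 h the values were 0.66 ± 0.25 for SATB1, 0.26 ± 0.11 for LINC01607, 0.21 ± 0.20 for KDM1A, 0.18 ± 0.097 for CENPV, 0.14 ± 0.12 for EIF4B, 0.071 ± 0.11 for ATXN7L2 and -0.12 ± 0.10 for MEX3A. Both 0.5 h libraries were above both untreated ones for SATB1, LINC01607 and CENPV, 3 of 7 against 12.9% of all genes, and below them for MEX3A, 1 of 7 against 14.4%. The sign at 0.5 h rested on single libraries in KDM1A, with 0.47 without untreated replicate 1, -0.023 without untreated replicate 2 and 0.0040 without 0.5 h replicate 1. ATXN7L2 likewise had 0.0015 without untreated replicate 2 and -0.015 without 0.5 h replicate 2. Leaving out 1 library moved EIF4B between 0.043 and 0.22 and MEX3A between -0.21 and -0.043. The authors' deposited tables of genes that differ from untreated cells list 17 genes at 0.5 h and 24 at 24 h, and 0 of the 7 are among them.

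**Figure D3:**
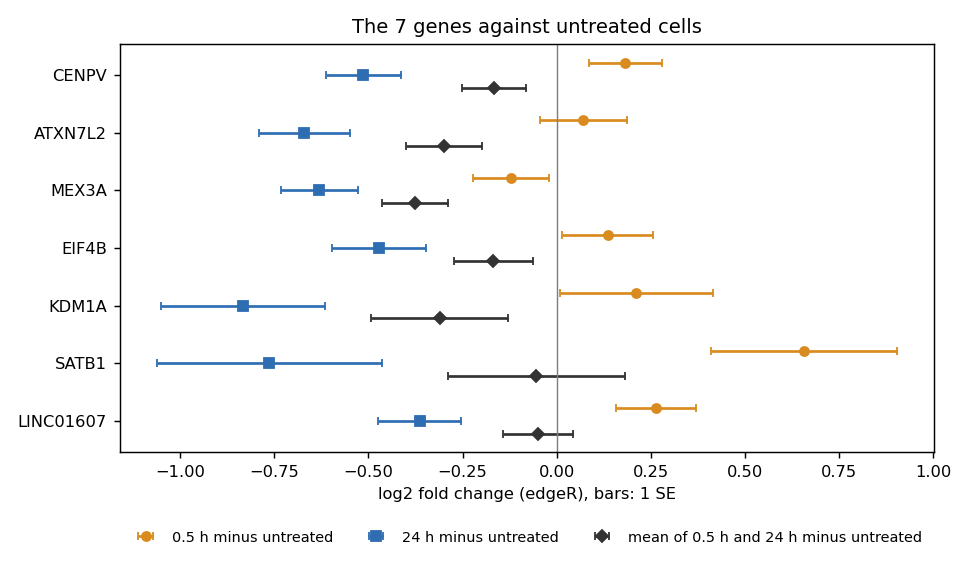
Log2 fold change from untreated cells for each of the 7 genes (points, with bars of 1 SE), at 0.5 h, at 24 h and for the mean of both MPP+ groups. The 24 h values run from -0.83 to -0.36, and the 0.5 h values from -0.12 for MEX3A to 0.66 for SATB1.

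Of the comparisons with untreated cells, the mean of both MPP+ groups is the one least tied to the choice. It would be orthogonal to 24 h against 0.5 h only if both groups were equally precise. The SE against untreated cells was larger at 24 h than at 0.5 h for each of the 7, for SATB1 0.30 against 0.25. The choice of genes low at 24 h therefore also pulls this mean down. The choice may also have favoured genes with a small spread between libraries, as the 7 ranked high by p. That spread enters the SE and p given here, so these p-values cannot be taken as free of the choice. In this comparison edgeR called 0 of the 7 genes, where it called 22 genes lower in the whole table, 0.0951% of those tested, and 0 higher. Those 22 were 16 genes encoded on mtDNA and 6 nuclear copies of mtDNA genes. MEX3A had the smallest p of the 7, with a log2 difference of -0.38 ± 0.087 (edgeR, adjusted p = 0.659, unadjusted p = 0.00174). ATXN7L2 followed with -0.30 ± 0.10 (edgeR, adjusted p = 0.998, unadjusted p = 0.0151). The other 5 had -0.31 ± 0.18 for KDM1A, -0.17 ± 0.085 for CENPV, -0.17 ± 0.11 for EIF4B, -0.053 ± 0.23 for SATB1 and -0.049 ± 0.093 for LINC01607, each with adjusted p = 0.998 in edgeR. All 7 lay below 0 with a median of -0.17, where 11327 of 23133 genes lay below 0 and the median was 0.0043. As the choice pulls these values down, nothing is read from their shared sign. The value of KDM1A was -0.058 without untreated replicate 1 and -0.55 without untreated replicate 2, and that of EIF4B was -0.083 and -0.26. SATB1 turned to 0.0065 without 0.5 h replicate 1, and LINC01607 to 0.037 without untreated replicate 1.

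Genes at the same loci were compared at 24 h against 0.5 h, and for these the contrast was not part of the choice. PIGL, a GPI-anchor enzyme that overlaps CENPV on the opposite strand, had a log2 difference of -0.078 ± 0.095. TBC1D5, a Rab GTPase-activating protein whose span holds nearly all of SATB1 on the same strand, had 0.059 ± 0.13, and SATB1-AS1, antisense to SATB1 over 565 bases, had 0.15 ± 0.15. TNS2-AS1 over EIF4B had 0.057 ± 0.11, ENSG00000240553 over KDM1A had -0.15 ± 0.31, and ENSG00000249328 over LINC01607 had 0.16 ± 0.20. Of these 6 overlapping genes edgeR called 0, with adjusted p between 0.879 and 0.951. It called 0 of all 23133 tested genes in this contrast, so nothing is read from that count.

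The nearest tested gene on each side gave 14 neighbours, 7 above 0 and 7 below, with a median of 0.040 and a range from -0.35 to 0.52. EdgeR called 0 of them, as it called 0 of all tested genes, so nothing is read from this count either. LMNA, the lamin A gene that starts 574 bases from MEX3A on the opposite strand, had 0.097 ± 0.12, and RAB25, on the other side of MEX3A, had 0.26 ± 0.11. LUZP1, whose end lies 333 bases from that of KDM1A, had 0.13 ± 0.12. CYB561D1, a cytochrome b561 family gene 1247 bases from ATXN7L2 on the same strand, had -0.35 ± 0.17, the lowest of the 14. HEY1, a Notch target that starts 278 bases from LINC01607 on the opposite strand, had -0.26 ± 0.34, with replicate 1 above replicate 2 in every group (113 and 79.7 CPM untreated, 176 and 83.9 at 0.5 h, 139 and 77.8 at 24 h). NCOR1 and UBB beside CENPV had -0.015 ± 0.10 and 0.18 ± 0.15, and TNS2 and KRT8 beside EIF4B had 0.095 ± 0.15 and 0.31 ± 0.25.

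**Figure D4:**
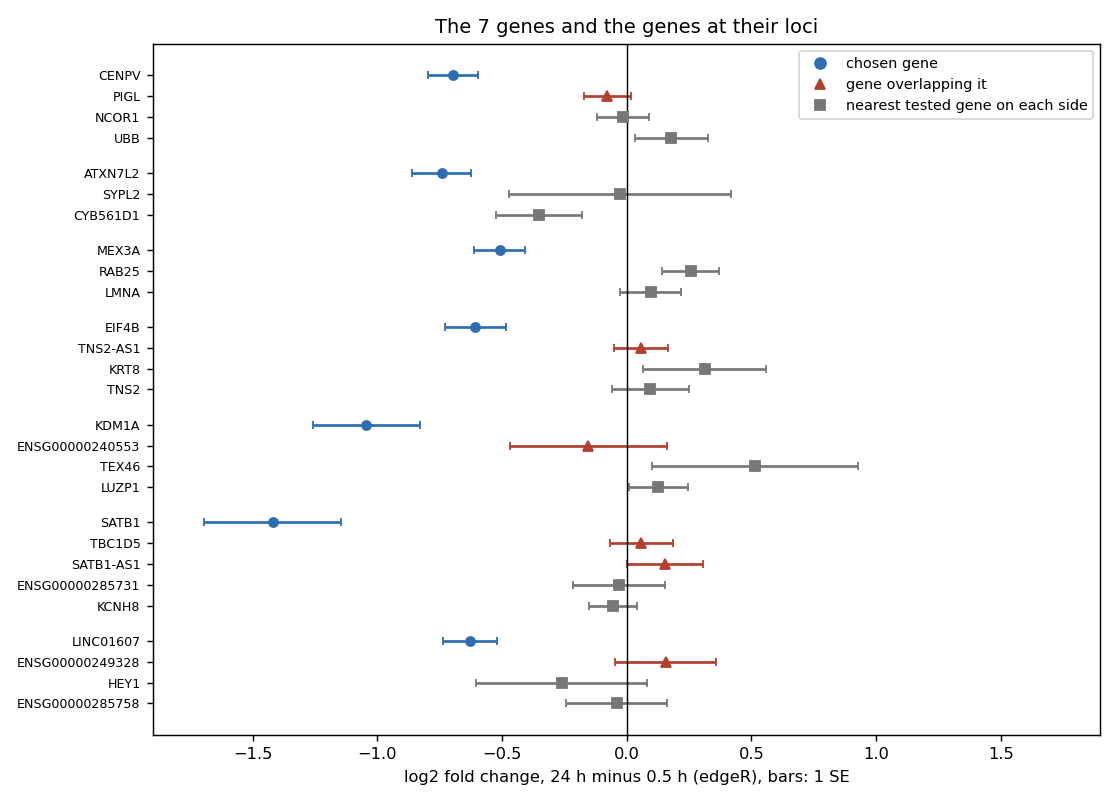
Log2 fold change between 24 h and 0.5 h (points, with bars of 1 SE) for the 7 genes (blue circles), genes that overlap them (red triangles) and the nearest tested gene on each side (grey squares). The 7 genes lie between -1.42 and -0.51, and the 14 neighbours between -0.35 and 0.52.

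Partners and paralogues of the 6 protein-coding genes were taken from lists drawn up by function. At 24 h against 0.5 h edgeR, in the fit without the replicate block, called 0 of the 65 tested genes of the 6 lists. The percent called in the whole table was 0 in that fit. Of all 23133 tested genes, 11445 lay below 0 in this contrast, and the median was 0.0029. The chromosomal passenger complex, the partner of CENPV, had 4 of 4 tested genes below 0 with a median of -0.19. Its scaffold INCENP had -0.19 ± 0.10, survivin (BIRC5) -0.19 ± 0.11 and the kinase AURKB -0.29 ± 0.25. The MEX3 family of RNA-binding ubiquitin ligases had 3 of 3 below 0 with a median of -0.34, from MEX3B at -0.34 ± 0.15 and MEX3D at -0.50 ± 0.30 to MEX3C at -0.12 ± 0.17.

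Among factors of the eIF4 group that work with EIF4B, 11 of 14 were tested, of which 2 lay above and 9 below 0, with a median of -0.14. EIF4EBP1, the inhibitor that holds eIF4E, had -0.36 ± 0.15, and the poly(A)-binding protein gene PABPC1 had -0.21 ± 0.10. The chromatin architecture genes listed with SATB1 had 3 above and 10 below 0 of 13, with a median of -0.12. The cohesin subunit SMC1A had -0.37 ± 0.14, and the scaffold attachment factor SAFB2 had -0.27 ± 0.11.

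The SAGA complex and ataxin-7 family had 18 of 22 genes tested, 10 above and 8 below 0, with a median of 0.049. The deubiquitinase USP22 and its module partner ENY2 had -0.31 ± 0.13 and -0.36 ± 0.15. Of 18 CoREST and LSD1 partners 16 were tested, 7 above and 9 below 0, with a median of -0.052. RCOR2, a CoREST scaffold, had -0.22 ± 0.12, and KDM1B, the paralogue of KDM1A, had 0.15 ± 0.095. In the mean of both MPP+ groups against untreated cells edgeR called 0 genes of each list, and the medians were -0.11 for the chromosomal passenger complex, 0.0077 for SAGA, -0.13 for MEX3, 0.012 for eIF4, -0.012 for CoREST and -0.082 for chromatin architecture. Of the partners, 7 were listed at 0 in all libraries: SGF29, TAF6L, TAF9, TAF10, EIF4A1, EIF4E3 and EIF4EBP3. Those other than SGF29 lie almost wholly inside other genes, TAF6L and TAF10 for 99.9% of their span, and TAF9, EIF4A1, EIF4E3 and EIF4EBP3 for 100%, like the genes at 0 described above.

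**Figure D5:**
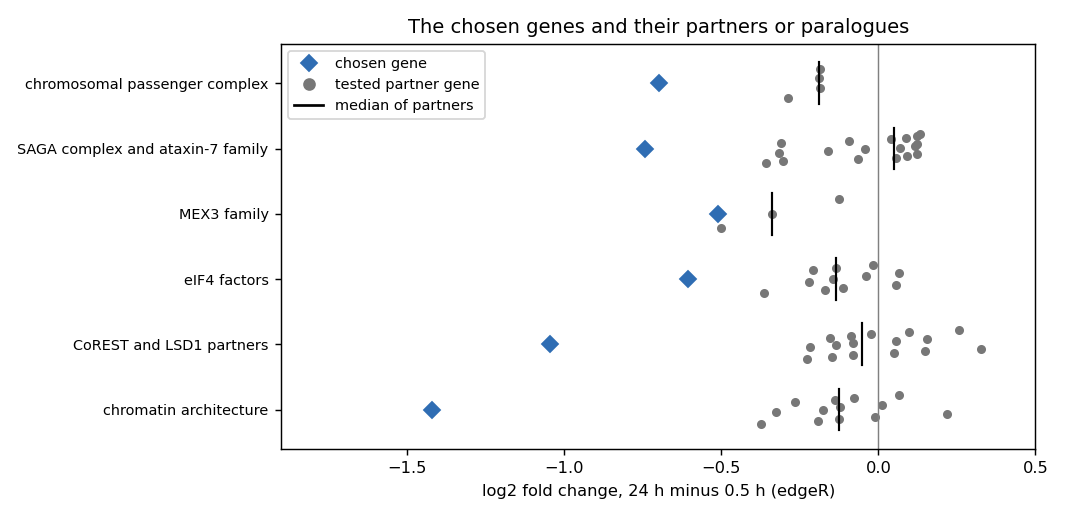
Log2 fold change between 24 h and 0.5 h for 6 of the genes (blue diamonds) and for the tested genes of each partner list (grey points), with the list median as a black line. The medians run from -0.34 for the MEX3 family to 0.049 for SAGA.

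The log2 CPM of the 7 genes was correlated over the 6 libraries. Pearson r lay between 0.769 (MEX3A and SATB1) and 0.984 (EIF4B and KDM1A) over 21 pairs, with a median of 0.909. All 7 were chosen for the same difference between groups, which these values share. From untreated cells to 0.5 h the genes did not all move the same way, with MEX3A lower and SATB1, LINC01607 and CENPV higher. The genes whose pattern was most like the mean of the 7, out of 16645 with a mean of at least 50 counts, were MACROH2A2 (r = 0.996), GJC1 (0.995), POLR3D (0.993), SAR1A (0.990) and ENSG00000275202 (0.990). At r of 0.95 or above there were 101 genes. MACROH2A2 encodes a variant histone, GJC1 a connexin, POLR3D a subunit of RNA polymerase III and SAR1A a GTPase of COPII vesicles.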

How the data were processed

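The authors deposited 1 table of raw read counts per gene for each of the 6 libraries. Per the submitters' processing notes they used cutadapt 1.16.5, Bowtie2 2.4.2, SAMtools 1.13, DESeq2 2.11.40.6, featureCounts 2.0.1 and, as build, hg38. Neither the strand, feature type and multimapping options nor the release of the annotation is given in the sources used here. How overlapping genes were counted was therefore checked on the counts. The p-values in the differential tables that the authors deposited were used only to see which genes are listed.

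Of the 67051 identifiers, 60437 were named from a gene name table, 257 from GENCODE 29, and 6357 had no symbol. After filterByExpr and TMM scaling, all 6 libraries entered 1 quasi-likelihood fit with edgeR 4.0.16 (R 4.3.3, 3 residual degrees of freedom, common biological coefficient of variation 0.113). Two-sided p-values were adjusted by Benjamini-Hochberg over 23133 genes, with a threshold of 0.05. The fit was also run on simulated counts with no effect shared by same-numbered libraries, unlike these data, so nothing is read from that run. The members, lists and tests were chosen with earlier results of these data known. The genes named were the 7 members, per list the 2 with the smallest p at 24 h against 0.5 h and any called, the nearest tested neighbours, and the 5 most alike in pattern. AURKB, MEX3C, MEX3D, the genes that overlap the 7, the partners at 0 and the genes ranked by p among or next to the 7 were named after their values were seen.

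The 2 libraries of a group differed beyond counting error, with chi-square per degree of freedom of 5.61, 8.97 and 4.13 for untreated, 0.5 h and 24 h. A gene at 0 could hold up to 3 counts, 2.56e-05% to 5.01e-05% of a library. Molecules and PCR copies are not separated, so this floor and the counting errors cover counting error only. Alternatives were other scalings, filters, DESeq2, the replicate block and leaving out each library. Of the 7 genes, 6 matched a RefSeq promoter, and LINC01607 did not.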

Additional observations from a re-analysis of the deposited data

How the results depend on the processing

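The choice of the 7 genes fixed the sign of 24 h against 0.5 h, so nothing is read from their alternative values in that contrast. In the whole table, dropping the filter on low counts gave 29 higher and 44 lower genes in that contrast, and 60 higher and 62 lower (22 with the filter) for both MPP+ groups against untreated. DESeq2's Wald test called 4 higher in the latter contrast. Leaving out 1 library gave 0 to 1 higher (1 without untreated replicate 2) and 15 to 20 lower. The cause was not tested. Among the members, the mean of both MPP+ groups minus untreated turned to 0.0065 for SATB1 without 0.5 h replicate 1 (lowest -0.11, without 0.5 h replicate 2) and to 0.037 for LINC01607 without untreated replicate 1 (lowest -0.15, without untreated replicate 2). The count of members with both 24 h libraries below both untreated libraries was 7 in each alternative run. Leaving out a library could not lower that count, and the choice also used the 24 h libraries, so nothing is read from it. SATB1 has no value under the filter at a mean of 50 counts. Counts of 14 to 60 per library limit SATB1, and 2 libraries a group limit every value.

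The groups share replicate numbers 1 and 2, and the labels do not say what a number stands for. Deviations of same-numbered libraries from their group means correlated at 0.503, 0.487 and 0.524 over 16651 genes for the 3 pairs of groups. With the replicate block, edgeR called 116 higher and 296 lower genes at 24 h against 0.5 h. For both MPP+ groups against untreated it called 79 higher and 122 lower of 23133 tested genes, 1 of the latter a member. That member was MEX3A (log2 difference -0.38, edgeR adjusted p = 0.00886 with the block and 0.659 in the fit by group). Its p cannot be taken as free of the choice, which may have favoured genes with a small spread between libraries. At 24 h against untreated, the replicate block and the filter on low counts changed whether members passed the threshold. That contrast shares its 24 h libraries with the choice, so no call of the 7 is read from it.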
